A study of Mus musculus with 12 samples.

Results

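Scgb1a1, Scgb3a1, Scgb3a2, Cyp2f2, Aldh1a1, Muc5b, Spdef and Sox2 are 8 genes of the airway secretory program and its proximal transcription factors, out of 21887 protein-coding mouse genes. They were chosen by name, and every peak over each gene and 50 kb on either side was collected from the peak lists. A peak was linked to a member when the nearest end of any protein-coding gene to the peak's midpoint was an end of that member. The study mapped NKX2-1, PRDM16, PRDM3 and the promoter mark H3K4me3 by CUT&RUN, a method that frees the DNA around an antibody's target with a tethered nuclease so that it can be sequenced. Lung epithelial cells were taken by their surface protein EpCAM from pools of C57Bl6 fetuses, wild type and at stage E17.5, with 100000 cells per reaction. The labels give no mutation or treatment for any group, and the groups are set apart by antibody. There were 3 NKX2-1, 3 H3K4me3, 2 PRDM16 (replicate 1 with a rabbit and replicate 2 with a sheep antibody) and 1 PRDM3 library, and the 3 IgG samples were not analysed here. The labels do not say whether replicates came from separate pools, so p-values measure only the spread between these libraries.

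In the fetal lung the airway tree and the distal tips take separate paths. The HMG-box factor SOX2 marks the proximal airway, and the club cells that later line it secrete secretoglobins and carry detoxifying enzymes, while goblet cells make gel-forming mucins under the ETS factor SPDEF. NKX2-1 is a homeodomain protein needed for lung epithelium of both compartments and is known to act on secretoglobin and surfactant genes. PRDM16 and PRDM3 are related zinc-finger proteins that bind DNA and associate with chromatin regulators, and H3K4me3 lies at the start sites of genes in an active or poised state.

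Peak lists held from 14646 (H3K4me3 replicate 3) to 111489 peaks (PRDM16 replicate 1), and read depth is unknown. The height of a peak is given as the authors' fold enrichment over background, together with its place in its own list (its rank by fold enrichment as a percent of the list, where equal values share the best rank and a low percent is strong). The lists of the 3 proteins reached down to p of 0.00991, so they hold many weak peaks with equal values, while the H3K4me3 lists stopped at q of 0.000969. A q under 0.05 was held by 76.4%, 10.8% and 12.9% of NKX2-1 peaks in replicates 1 to 3, by 44.5% and 45.0% of PRDM16 peaks and by 42.3% of PRDM3 peaks. Peak names fall into 2 letter series, with all PRDM libraries and replicate 1 of NKX2-1 and of H3K4me3 in one, and replicates 2 and 3 of both in the other. H3K4me3 lay at a gene end of 5 of 6 general epithelial markers, 3 of 3 ciliated, 0 of 2 basal, 1 of 3 neuroendocrine, 1 of 3 mesenchymal (Col1a1), 1 of 3 endothelial (Kdr) and 0 of 3 immune and blood markers. The share over all protein-coding genes was 55.7%. In a longer list of 12 ciliated genes, which includes these 3, it was 7 of 12 (58.3%). The cells were bulk preparations, so fewer airway cells and less signal per cell cannot be told apart.

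The 8 windows spanned 1027 kb and held 299 peaks, of which 255 came from the 3 proteins. Of the 299, 129 were linked to a member, 107 of them from the proteins and 22 from H3K4me3. The others lay nearer to a neighbouring gene. Of the 107 linked protein peaks, 85 (79.4%) overlapped no H3K4me3 peak of any library, and 43 (40.2%) had a q under 0.05, in 5 members. Aldh1a1 had 35 linked peaks, Sox2 47, Cyp2f2 21, Scgb3a2 7, Spdef 7, Scgb1a1 6, Muc5b 5 and Scgb3a1 1. By the linking rule these counts depend on window length and on how near other genes lie. The Aldh1a1 window spanned 251 kb and the others 102 to 134 kb. Overlapping peaks of all libraries merged into 75 linked places, 57 of which were seen in 1 library only. This share was not computed for places over all genes. Of linked PRDM16 peaks, 60.9% and 46.9% overlapped a peak of another library (47.1% and 59.1% over the whole lists). For PRDM3 it was 38.5% (63.3%), and for NKX2-1 81.8%, 30.8% and 33.3% (77.0%, 31.5% and 30.1%). For H3K4me3 it was 83.3%, 100% and 87.5% (95.9%, 99.2% and 99.8%). Of the places, 4 held peaks of at least 5 libraries, 1 each at Aldh1a1 (9 libraries), Sox2 (7), Scgb1a1 (5) and Spdef (5), and they are described with their genes.

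**Figure D1:**
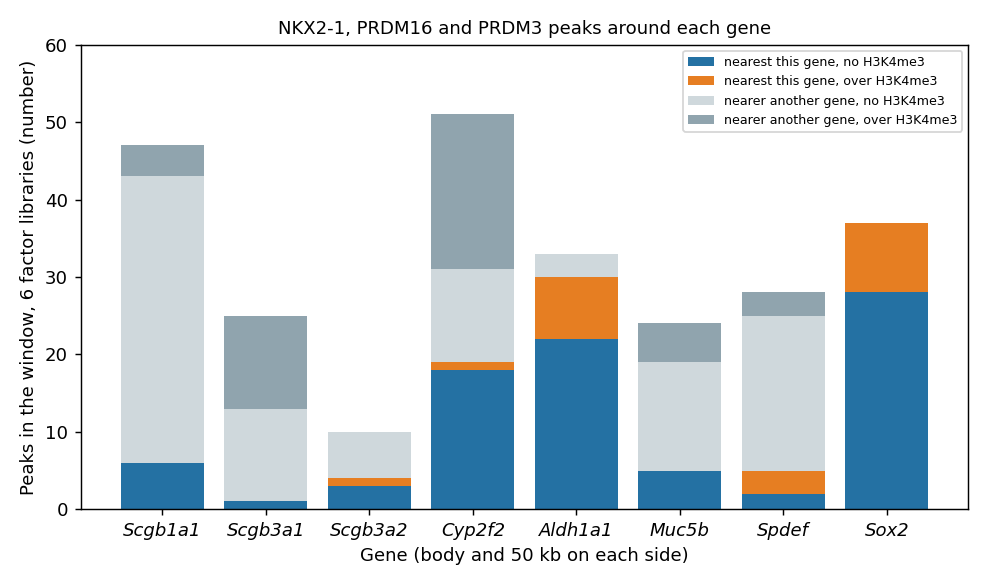
Number of NKX2-1, PRDM16 and PRDM3 peaks (6 libraries summed) in the window of each gene, as stacked bars split by whether the peak lies nearest this gene or another and by overlap with H3K4me3. Scgb1a1 has 47 such peaks in its window but 6 linked ones, all without H3K4me3, while all 37 at Sox2 are linked.

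**Figure D2:**
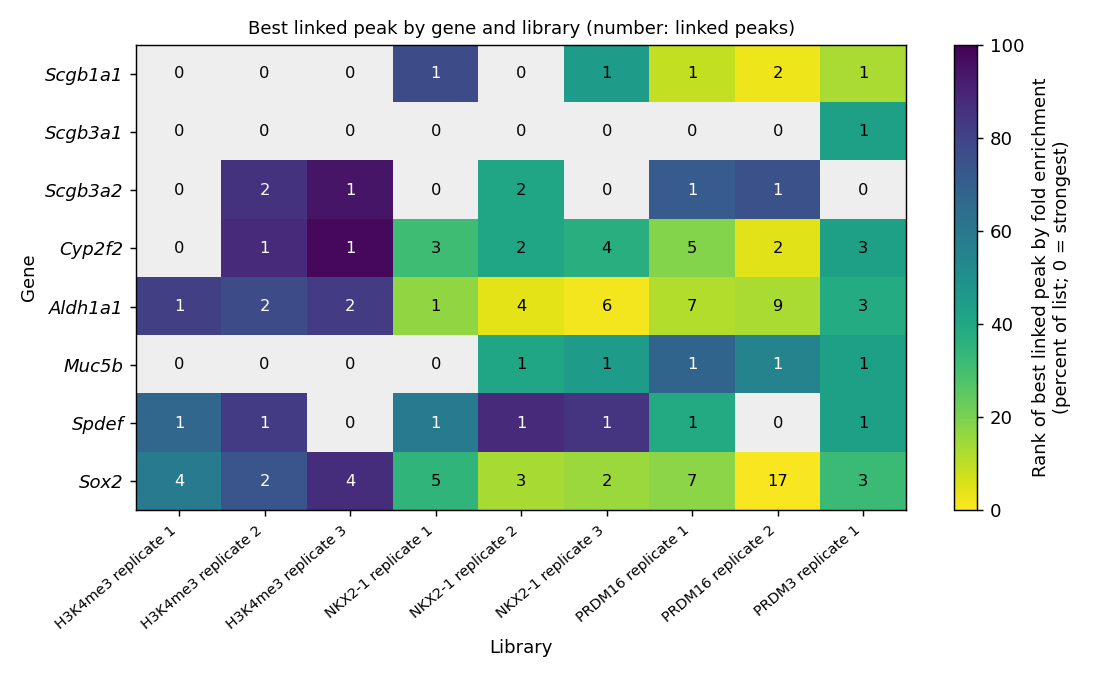
Genes in rows and the 9 libraries in columns. Colour gives the rank of the strongest linked peak as a percent of its library's list, from 0 (strongest) to 100, grey means no linked peak, and the number in a cell counts linked peaks. Scgb3a1 has a linked peak in 1 library, Aldh1a1 and Sox2 have one in all 9, and the H3K4me3 cells with a peak all lie at 58.7% or beyond.

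The DNA before annotated starts is shown for promoters with and without peaks. Each stretch is 250 bases, 5′ to 3′ on the gene's strand, from RefSeq (GRCm38.p6, the assembly of mm10). RefSeq start windows matched 5 of the 8 genes, with 2 starts for Aldh1a1. Capitals mark the NKX2-1 motifs CAAGTG and CTCAAG, searched on both strands. The pair of Aldh1a1 starts contrasts an inner start with peaks of all 9 libraries (chr19:20601718-20601967, plus strand) and the outer start with none (chr19:20492333-20492582, plus strand). Spdef (chr17:27728952-27729201, minus strand) and Sox2 (chr3:34649745-34649994, plus strand) have peaks of some libraries there, and Scgb3a1 (chr11:49663345-49663594, plus strand) of none.
Aldh1a1 inner start: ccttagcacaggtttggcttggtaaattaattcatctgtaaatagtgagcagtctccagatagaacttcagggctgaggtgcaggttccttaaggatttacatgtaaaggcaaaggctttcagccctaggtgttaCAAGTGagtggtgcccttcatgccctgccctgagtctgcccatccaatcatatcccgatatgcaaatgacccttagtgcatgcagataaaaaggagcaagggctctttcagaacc
Aldh1a1 outer start: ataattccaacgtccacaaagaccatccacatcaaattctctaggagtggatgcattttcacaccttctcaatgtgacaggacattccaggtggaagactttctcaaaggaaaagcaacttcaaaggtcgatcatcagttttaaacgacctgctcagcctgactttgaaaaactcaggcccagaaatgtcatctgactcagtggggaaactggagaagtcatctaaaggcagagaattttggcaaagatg
Spdef: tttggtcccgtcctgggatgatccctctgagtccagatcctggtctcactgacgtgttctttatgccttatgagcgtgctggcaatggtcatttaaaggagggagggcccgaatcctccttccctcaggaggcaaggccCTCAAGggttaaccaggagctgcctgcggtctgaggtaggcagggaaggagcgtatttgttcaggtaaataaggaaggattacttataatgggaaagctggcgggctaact
Sox2: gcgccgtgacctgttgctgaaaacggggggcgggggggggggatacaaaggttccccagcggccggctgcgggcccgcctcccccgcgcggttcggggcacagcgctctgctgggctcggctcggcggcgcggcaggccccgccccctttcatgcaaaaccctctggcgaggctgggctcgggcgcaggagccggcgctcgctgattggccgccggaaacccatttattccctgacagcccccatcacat
Scgb3a1: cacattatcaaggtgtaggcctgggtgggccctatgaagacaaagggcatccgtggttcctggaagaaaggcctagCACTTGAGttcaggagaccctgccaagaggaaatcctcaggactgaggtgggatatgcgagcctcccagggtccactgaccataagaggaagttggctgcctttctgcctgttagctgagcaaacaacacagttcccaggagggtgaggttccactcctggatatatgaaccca

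The Sox2 stretch was 72% G and C with 27 CpG sites, against medians of 55.6% and 10 over 21263 promoters. The Aldh1a1 inner stretch had 46.4% and 1 CpG, and the outer stretch 42.8% and 3. CAAGTG stood 115 to 110 bases before the Aldh1a1 inner start. CTCAAG stood 111 to 106 bases before the Spdef start. In Scgb3a1 both motifs overlapped on the opposite strand, 174 to 167 bases before the start, in a promoter without a peak. Of the 6 stretches with their first 50 transcribed bases, PRDM16 replicates 1 and 2 had a peak at 3 and 2 (54.0% and 46.5% of all promoters), PRDM3 at 1 (38.3%), H3K4me3 replicates 1 to 3 at 2, 4 and 2 (12111 of 21263, 54.8% and 53.3%), and NKX2-1 replicates 1 to 3 at 3, 2 and 1 (51.6%, 28.6% and 34.1%). The promoter of Cyp2f2, not printed, held CAAGTG 191 to 186 bases before its start. Among all promoters of this length 11.2% held CAAGTG and 13.0% CTCAAG, so either motif is common by its letters alone. The FOXA motif TGTTTAC (2.62% of promoters) and the GATAAG motif of PRDM3 and GATA factors (6.25%) were in none of the 6 stretches searched.

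Scgb1a1 (chr19:9083642-9087956), the club cell secretoglobin, had a strong PRDM16 and PRDM3 site just beyond one end and no H3K4me3 of its own. The site (chr19:9080818-9082764) carried peaks of 5 libraries, and the gene's strand is not given in the table used, so whether this is the promoter side cannot be read from it. Fold enrichment was 7.22 in PRDM16 replicate 1 (9.18%) and 9.33 in replicate 2, where it ranked 1969 of 79072 (2.49%). PRDM3 had 5.30 (12.7%). NKX2-1 had 3.03 in replicate 1 (76.8%) and 2.40 in replicate 3 (44.6%, a value shared by 30268 peaks of that list), and no peak in replicate 2. Both PRDM16 peaks and the PRDM3 peak thus stood high in their lists, while neither NKX2-1 peak had a q under 0.05. The −log10 q was 8.68 and 12.2 for PRDM16, 3.91 for PRDM3, and 1.09 and 0.114 for NKX2-1. The peaks centred 1360 to 2093 bases outside the gene. H3K4me3 peaks in the window belonged to Asrgl1, with fold enrichment of 21.6, 23.7 and 24.7 in replicates 1 to 3. One other linked peak was seen, PRDM16 replicate 2 at 2.34, centred 5621 bases beyond the other end. Nearer to neighbouring genes, the window held further places of all 3 proteins without H3K4me3. They lay at chr19:9047498-9048504 and chr19:9052922-9053655 (Ahnak) and at chr19:9106521-9107809 (Asrgl1). There NKX2-1 replicate 1 had 3.29, 4.70 and 4.07, PRDM16 replicate 2 had 5.10, 8.19 and 5.09, and PRDM3 had 5.39, 3.93 and 3.39.

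**Figure D3:**
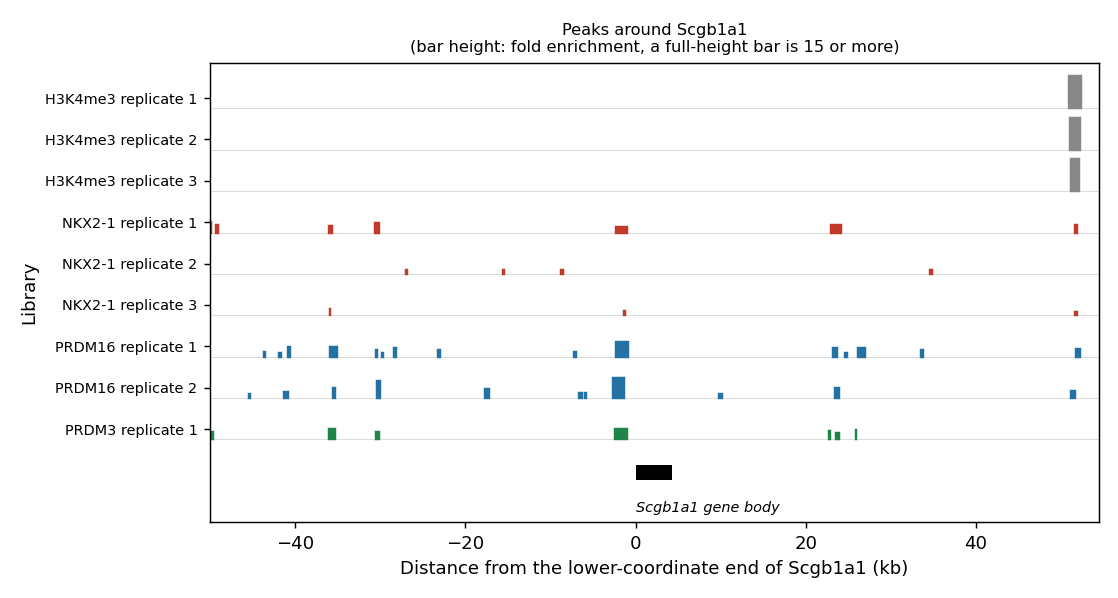
Peaks of the 9 libraries around Scgb1a1 by distance from the gene's lower-coordinate end in kb, 1 row per library. Bar height is fold enrichment (a full-height bar is 15 or more), and narrow peaks are drawn at a minimum width. The site beside Scgb1a1 is present in both PRDM16 libraries, the PRDM3 library and 2 of 3 NKX2-1 libraries, while H3K4me3 appears only at the neighbour Asrgl1.

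Scgb3a1 (chr11:49663595-49665118), a secretoglobin of the larger airways, was almost free of peaks. Its single linked peak came from the PRDM3 library (chr11:49665439-49665654), with fold enrichment 3.39 and −log10 q 1.18, and its promoter held no peak of any library. The other peaks of its window lay nearer to Flt4 or Cnot6. At Cnot6, H3K4me3 reached 22.9, 60.7 and 36.1 and PRDM16 replicate 1 11.4 (rank 3202 of 111489).

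Scgb3a2 (chr18:43764301-43767399), a secretoglobin made early in airway development, carried H3K4me3 at low height and little else. H3K4me3 fold enrichment was 7.30 and 8.08 at neighbouring peaks in replicate 2 and 6.18 in replicate 3 (94.4% of the list), and replicate 1 had no peak in the window. NKX2-1 replicate 2 had peaks of 2.32 and 2.44, both at −log10 q of 0.0601, and replicates 1 and 3 had none linked. PRDM16 had 2.15 in replicate 1 and 2.34 in replicate 2, at different places, and PRDM3 had none. No linked protein peak of Scgb3a2 had a q under 0.05, and none was shared by replicates of 1 protein.

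Cyp2f2 (chr7:27119955-27133660), the cytochrome P450 of club cells that activates naphthalene, had linked peaks in 8 libraries, all but H3K4me3 replicate 1. The main site lay outside H3K4me3 (chr7:27110549-27112479). There PRDM16 reached 5.02 in replicate 1 and 7.79 in replicate 2 (rank 3543 of 79072, 4.48%). NKX2-1 reached 4.75 in replicate 1 (30.9%) and 2.44 in replicate 2, with no peak in replicate 3. The stretch common to both PRDM16 libraries (chr7:27110648-27111219) was centred 9022 bases from the nearer gene end. A weaker PRDM16 pair (4.90 and 3.89) overlapped at chr7:27118447-27118627, 1418 bases from that end. Inside the gene near its other end (chr7:27132505-27133482) lay PRDM16 replicate 1 at 3.77 and NKX2-1 at 4.70 in replicate 1 and 2.83 in replicate 3. PRDM3 had 3 linked peaks, all at other places, the strongest at 3.39. H3K4me3 was 7.30 in replicate 2 and 5.33 in replicate 3, near the start but not at a common base, so no H3K4me3 region was counted at Cyp2f2. Stronger peaks of the window stood at the neighbours Egln2, Rab4b and Mia, such as NKX2-1 replicate 3 near Rab4b at 7.99 (rank 287 of 79511).

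Aldh1a1 (chr19:20492583-20643463), a retinaldehyde dehydrogenase that makes retinoic acid, held the 1 linked place with peaks of all 9 libraries (chr19:20601252-20603343). It lay at the inner annotated start, 109385 bases inside the gene from its outer start. NKX2-1 fold enrichment there was 6.46, 4.64 and 5.59 in replicates 1 to 3, which placed it at 16.6%, 4.29% and 1.90% of the lists. PRDM16 had 6.47 and 5.50 (11.5% and 12.8%). PRDM3 had 3.77 (38.6%). All 6 protein peaks had a q under 0.05, and in NKX2-1 replicates 2 and 3 these were the only linked peaks of the 8 genes that did. H3K4me3 was 6.73, 11.8 and 9.80, and stood at 81.1%, 76.8% and 82.7% of its lists. The lists differ in length and threshold, so places are not compared between the proteins and the mark. The outer promoter had no peak, like 35.3% of 21263 promoters, and the inner one had peaks of all 9 libraries, like 16.0%. A second PRDM16 overlap (chr19:20602847-20603155, 3.58 and 4.20) lay next to the inner start under further H3K4me3. Of the 22 linked places of Aldh1a1, 20 were seen in 1 library only.

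**Figure D4:**
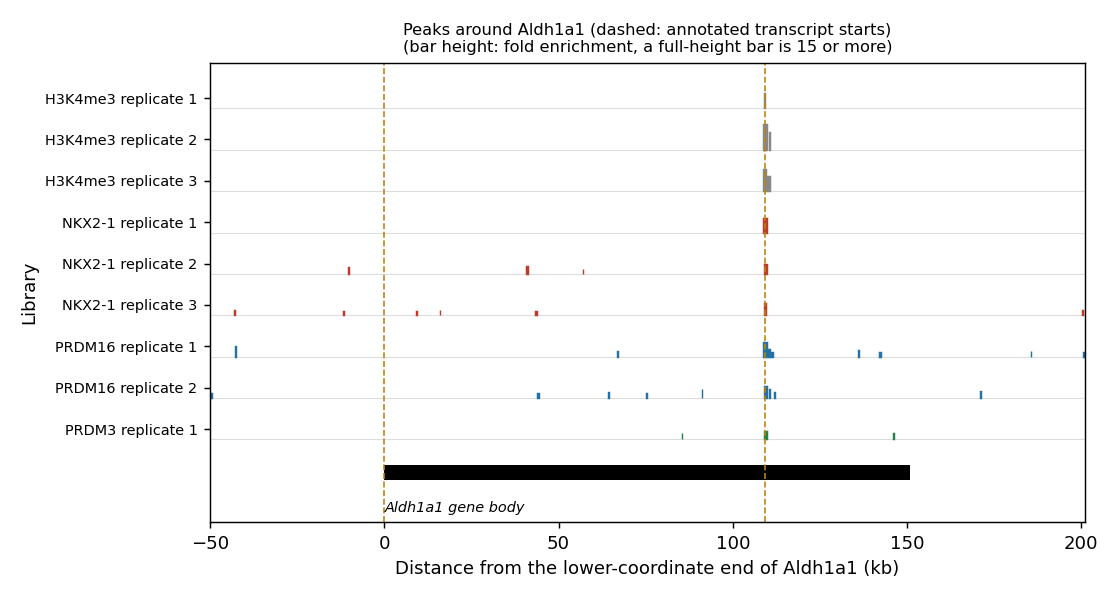
Peaks of the 9 libraries along Aldh1a1 by distance from the gene's lower-coordinate end in kb, 1 row per library, with bar height and minimum width as for Scgb1a1 and dashed lines at the annotated starts. All 9 rows have a peak at the inner start, and none has one at the outer start.

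Muc5b (chr7:141839059-141873089), the gel-forming mucin of airway secretions, had only weak linked peaks. PRDM16 had 2.69 and 3.11 at a common stretch (chr7:141836336-141836458), 2662 bases from the gene. PRDM3 had 3.39 inside the gene. NKX2-1 had 2.44 in replicate 2 and 2.40 in replicate 3, at opposite ends, and none linked in replicate 1. None of these 5 peaks had a q under 0.05, and H3K4me3 peaks of the window stood at Tollip (24.8, 54.5 and 30.0).

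Spdef (chr17:27714446-27731003), the ETS factor of goblet cells, had its peaks at an annotated start 2052 bases inside the gene (chr17:27728482-27729117). H3K4me3 was 9.28 in replicate 1 and 9.12 in replicate 2, and replicate 3 had no peak. NKX2-1 was 3.39 in replicate 1 and 2.19 in replicate 2 (−log10 q of 1.52 and 0.0601). PRDM16 had 3.50 in replicate 1 and none in replicate 2. Each of the 3 targets with replicates thus lacked the place in 1 library. PRDM3 (3.39) and NKX2-1 replicate 3 (2.27) had single peaks elsewhere in the gene.

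Sox2 (chr3:34649995-34652461), the proximal airway factor, was the only protein-coding gene in its window and had the most linked peaks. All 47 peaks of its window were linked to it, as no other protein-coding gene lay inside. The windows of Cyp2f2 and Scgb1a1 held more peaks, 64 and 50, most of them nearer to neighbouring genes. The rabbit PRDM16 library gave 7 and the sheep library 17, NKX2-1 gave 5, 3 and 2 in replicates 1 to 3, H3K4me3 gave 4, 2 and 4, and PRDM3 gave 3. The gene itself lay within a place of 7 libraries (chr3:34649206-34655561). H3K4me3 there reached 11.4, 8.58 and 8.24 in replicates 1 to 3. PRDM16 reached 4.90 in replicate 1, and 11.3 in replicate 2 in a peak 4102 bases long that ran beyond the gene (rank 834 of 79072, 1.05%, −log10 q 17.3). By fold enrichment that peak was the highest linked protein peak of the 8 genes. NKX2-1 reached 4.70 in replicate 1 and had no peak there in replicates 2 and 3, and PRDM3 reached 3.93. The promoter stretch overlapped peaks of 6 libraries.

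Both PRDM16 libraries shared 3 stretches at Sox2. They lay at chr3:34641115-34641193 (5.43 and 3.82), at the gene's start at chr3:34649697-34650169 (4.90 and 2.61) and just beyond its other end at chr3:34653713-34653965 (3.58 and 11.3). The first and the last lay outside H3K4me3, although the long replicate 2 peak that covers the last also reaches H3K4me3. A 79-base and an 81-base overlap show how short such common stretches can be, the latter for NKX2-1 at chr3:34647693-34647773 (4.03 in replicate 1 and 3.20 in replicate 3). A second H3K4me3 place downstream (chr3:34664054-34666099) reached 8.13, 13.4 and 6.87 and overlapped PRDM16 replicate 2 at 4.74, with no NKX2-1 or PRDM3 peak.

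**Figure D5:**
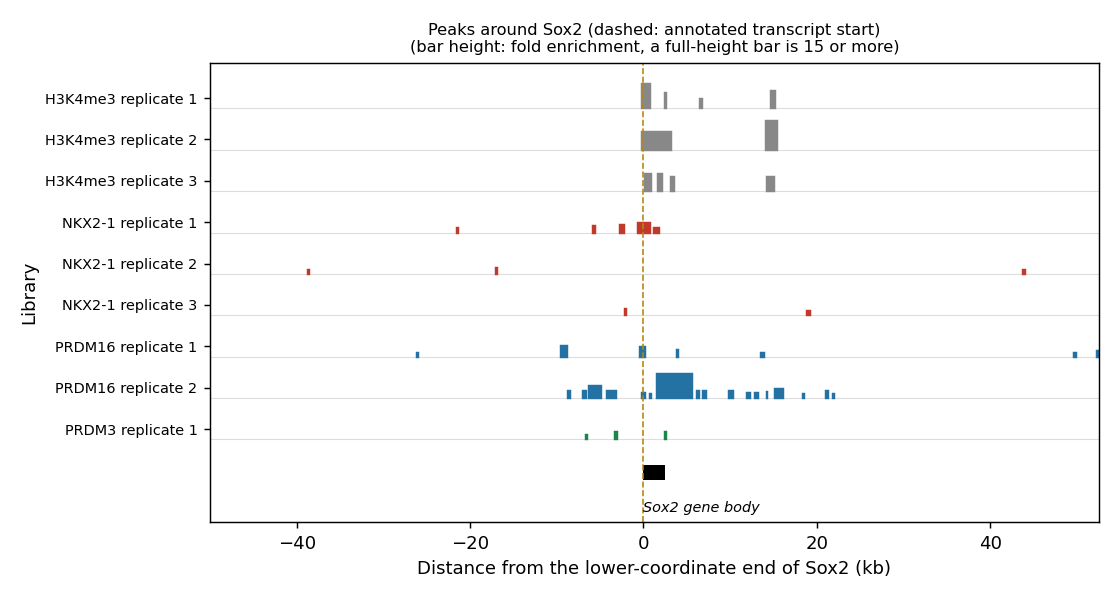
Peaks of the 9 libraries around Sox2 by distance from the gene's lower-coordinate end in kb, 1 row per library, with bar height and minimum width as for Scgb1a1 and a dashed line at the annotated start. All 3 H3K4me3 rows show the gene and a second place downstream, and the sheep PRDM16 row (replicate 2) holds 17 peaks against 7 in the rabbit row.

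Regions covered in more than 1 library were then counted over the 8 genes and set beside all protein-coding genes. An NKX2-1 region (covered in at least 2 of 3 libraries) was linked to 5 members, Scgb1a1, Cyp2f2, Aldh1a1, Spdef and Sox2, against 51.3% of all genes. Without NKX2-1 replicate 1 only Aldh1a1 remained (31.3% of all genes under the same rule), and without replicate 3 Cyp2f2, Aldh1a1 and Spdef (39.0%). A PRDM16 region (covered in both libraries) was linked to 5 members, Scgb1a1, Cyp2f2, Aldh1a1, Muc5b and Sox2, against 59.1%. A peak of the single PRDM3 library was linked to 7, all but Scgb3a2, against 67.2%. With a q under 0.05 it was 3 of the 8 members, against 46.1% of all genes. Each of these counts is close to what the share over all genes would give for 8 genes.

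Regions of all 3 proteins overlapped at Scgb1a1 and Aldh1a1, 2 of 8 against 35.1% of genes. Scgb1a1 dropped out without NKX2-1 replicate 1 or replicate 3, which left 1 (21.5% and 27.3% of genes). Outside H3K4me3, a PRDM16 region was linked to 4 members (Scgb1a1, Cyp2f2, Muc5b and Sox2; 33.8% of genes) and an NKX2-1 region to 3 (Scgb1a1, Cyp2f2 and Sox2; 18.6%). Without NKX2-1 replicate 1 the latter count was 0, and without replicate 3 it was 1, Cyp2f2, while the share of all genes also fell, to 6.2% and 10.6%. The share of linked peaks outside H3K4me3 was 78.3% and 78.1% for PRDM16 (82.0% and 77.1% over the whole lists), 84.6% for PRDM3 (68.6%) and 63.6%, 76.9% and 93.3% for NKX2-1 (64.4%, 81.3% and 82.0%).

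H3K4me3 was sparse and low at the 8 genes. A region of it lay within 1 kb of a gene end at 2 members, Scgb3a2 and Sox2, against 55.7% of genes. Only Sox2 kept one without replicate 2 or without replicate 3 (54.0% and 55.2% of genes). Counting annotated starts too, an alternative chosen after seeing the data, added Aldh1a1 and Spdef, for 4 of 8 against 58.8%. Every one of the 22 linked H3K4me3 peaks stood in the lower part of its list, at 58.7% to 95.6% in replicate 1, 73.7% to 87.6% in replicate 2 and 82.7% to 98.0% in replicate 3. Thus 0 members had a linked H3K4me3 peak in the top 50% in any replicate, against 40.8%, 34.3% and 32.3% of all genes. For comparison, this held for 10, 9 and 7 of 12 genes of alveolar type 1 (AT1) cells and 7, 4 and 5 of 12 genes of alveolar type 2 (AT2) cells in replicates 1 to 3. Ciliated genes had 6, 4 and 2 of 12. The 23 other airway secretory genes, the list most like the members, had 4, 3 and 3. No test between lists was run.

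Over single libraries, a linked peak was found at 7 and 6 members for PRDM16 (81.6% and 71.7% of genes), 3, 5 and 4 for H3K4me3 (59.4%, 56.0% and 54.2%) and 5, 6 and 6 for NKX2-1 (68.2%, 71.8% and 77.5%). The median member had a linked peak in 6 of 9 libraries, and the median gene in 7. The 107 linked protein peaks had a median place of 44.6%, which is the rank shared by 30268 tied peaks of NKX2-1 replicate 3. This median pools lists of unlike thresholds and has no matching value over whole lists here. Taking the strongest linked peak of each gene that had one, the median place for NKX2-1 was 34.7%, 41.2% and 40.9% over members, against 19.8%, 13.1% and 15.2% over all genes, so the members' peaks stood lower. For PRDM3 it was 43.2% (a rank shared by 6014 peaks) against 24.8%. For PRDM16 it was 18.6% against 13.5% in replicate 1 and 8.66% against 19.5% in replicate 2, where the members stood higher. No test of these medians was run. Counting genes without a linked peak as well, the picture differed in part. For PRDM3, 7 of 8 members had a linked peak in the top 50%, against 51.7% of all genes. For PRDM16 it was 5 and 4 of 8 (72.3% and 59.0%), and for NKX2-1 3, 5 and 5 of 8 (55.7%, 66.5% and 73.6%). By q under 0.05, NKX2-1 had 8 of 11, 1 of 13 and 1 of 15 linked peaks, PRDM16 12 of 23 and 17 of 32, and PRDM3 4 of 13. Replicates 2 and 3 of NKX2-1 have few such peaks genome-wide as well.

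Each library's peaks in the 8 windows were also set against the length of its list. Per 10000 peaks of the list, the windows held 4.99 ± 0.816 for NKX2-1, 9.07 ± 1.54 for H3K4me3 and 6.63 ± 0.779 for the 2 PRDM16 and 1 PRDM3 libraries together (SD, n = 3 each). The values ran from 4.29 to 5.88, from 7.33 to 10.2 and from 5.92 to 7.46, so NKX2-1 overlapped neither of the other groups, by a narrow gap from PRDM (5.88 against 5.92). NKX2-1 minus H3K4me3 was −4.08 and NKX2-1 minus PRDM was −1.65, each with p = 0.1 in a two-sided exact permutation test over libraries (0.1 after Benjamini-Hochberg adjustment over both), the smallest p that 3 against 3 libraries allow. The difference from PRDM gave p = 0.6 in the exact permutation test with −log10 q of at least 5, and 0.2 both with the 20000 strongest peaks and with windows of 100 kb. The difference from H3K4me3 gave 0.2 with −log10 q of at least 5. Within the first letter series the values were 5.88 for NKX2-1, 7.33 for H3K4me3 and 6.63 for PRDM. Within the second they were 4.54 and 9.94, with no PRDM library. Target and letter series are thus partly mixed in the difference from PRDM, and the PRDM group pools 2 proteins. These counts include peaks of neighbouring genes, and the lists differ in their thresholds, whose part in the difference was not tested.

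Of 23 other airway secretory genes, 9 (39.1%) had a linked NKX2-1 region, against 51.3% of all genes. For PRDM16 the count was 14 (60.9% against 59.1%), for a PRDM3 peak 16 (69.6% against 67.2%) and for a region of all 3 proteins 7 (30.4% against 35.1%). H3K4me3 lay at a gene end of 6 of the 23 (26.1% against 55.7%). Of the 7, 4 are named by the mean NKX2-1 fold enrichment of their highest region. That region had NKX2-1 in 2 libraries for each gene, and the libraries differ in scale, so no order is read from the means. Ces1d, a carboxylesterase, had 10.7 in replicate 1 and 2.74 in replicate 3, 185 bases from a gene end. H3K4me3 at that region was 15.8, 30.4 and 26.8 in replicates 1 to 3. Cldn10, a claudin of tight junctions, had 10.2 in replicate 1 and 3.26 in replicate 2 at the region with its highest mean. H3K4me3 at that region was 12.1, 13.1 and 8.14. Another Cldn10 region (chr14:118854573-118855425) had NKX2-1 in all 3 libraries, at 9.40, 3.64 and 4.95. H3K4me3 there was 23.3, 68.7 and 59.1. Foxq1, a forkhead factor, had 5.05 in replicate 1 and 4.53 in replicate 3, and Cbr2, a carbonyl reductase, 4.73 in replicate 1 and 4.07 in replicate 2. A neighbouring Cbr2 region carried the same NKX2-1 replicate 1, PRDM16 and PRDM3 values, so it is not read as a separate site. It had 3.20 in NKX2-1 replicate 3. No H3K4me3 peak lay over these Foxq1 and Cbr2 regions. Among 12 genes each, 8 AT2, 9 AT1 and 9 ciliated genes had a region of all 3 proteins.

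The genes most like each member were sought by the place of the strongest linked peak in the 9 libraries, as the mean absolute difference in percentile points. Libraries in which both genes lacked a linked peak counted as equal, so a shared lack of peaks also brings genes close. Scgb1a1 was closest to Cxcl17 (2.54 points) and Serpina9 (2.97). Muc5b was closest to Asb9 (3.57), and Sox2 to Tmem178b (3.79) and Hs6st2 (4.72). Cyp2f2 was closest to Hdgfl1 (4.04) and Acsm2 (5.39). Aldh1a1 came nearest to Klrb1b (5.36), and Spdef to Tlcd5 (7.18) and Tagln3 (7.38). For Scgb3a2, Havcr1 and Olfr658 were equally near (2.26 points), and Scgb3a1, with a peak in 1 library, was not compared.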

How the data were processed

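CUT&RUN peak lists of 9 libraries were used, 1 deposited list per sample, and groups, replicate numbers and antibody hosts came from the labels. Per the submitters' processing notes, reads were handled with Bowtie2, Trimmomatic, HOMER and MACS2 on the build mm10. Their versions, and any control library used for calling peaks, are not given in the sources consulted. The deposited fold enrichment is a ratio of signal to background from the authors' peak caller, and it was used to rank and describe peaks within a list. The −log10 p and −log10 q columns were used as deposited. The score column that the authors deposited, 10 times one of these, was not analysed. Read depth is unknown from peak lists, and intervals that would need it are left out.

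Peaks were linked to the protein-coding gene whose end lay nearest the peak's midpoint, if they touched that gene or the 50 kb on either side (RefSeq, GRCm38.p6, 21887 genes). That table gives neither strand nor exons, and strand came from the RefSeq promoter table where a gene has an entry. Regions were stretches of at least 20 bases covered in both PRDM16, at least 2 of 3 NKX2-1 or H3K4me3, or the 1 PRDM3 library, and regions overlapped from 1 base on. A region of all 3 proteins is an NKX2-1 region that overlaps a PRDM16 and a PRDM3 region. The members and all gene lists were chosen with earlier results of these data known. Other genes named are those whose ends lie nearest a member's strongest window peaks, up to 4 genes of the wider list with a region of all 3 proteins by mean NKX2-1 fold enrichment, and the 2 genes most like each member with linked peaks in at least 5 libraries, some of which are not reported here. Counts of members were set beside the share of all genes, and only peaks per 10000 were tested, with exact permutation tests. Alternatives changed the q threshold, list length, overlap, distance, gene assignment and replicates. Linking was run on simulated peaks centred on the lower-coordinate ends of genes, and recovered 200 of 200 planted links over 21887 genes. As each planted peak sat on a gene end, this checks the code only. Links of peaks away from gene ends were not tested. The software was pandas 2.3.3, scipy 1.17.1, numpy 2.4.6 and matplotlib 3.10.9 under Python 3.11.15.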

Additional observations from a re-analysis of the deposited data

How the results depend on the processing

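Shares of all genes under the same setting are in parentheses, and they moved with the counts. Of the alternatives run, 81 kept a count of members within 1.5 times or a difference in peaks per 10000 below 0 (p of at least 0.1 where tested), 32 counts moved further, and none reversed. With −log10 q of at least 5, the counts were 0 for NKX2-1 (6.09%), PRDM3 (16.2%), all 3 proteins (2.68%) and NKX2-1 outside H3K4me3 (0.306%), and 1 (Scgb1a1) for PRDM16 overall (25%) and outside H3K4me3 (7.8%). With q under 0.05 they were 1 for NKX2-1 (31.7%) and for all 3 proteins (19.8%), Aldh1a1 in both, 3 for PRDM3 (46.1%) and 0 for NKX2-1 outside H3K4me3 (4.96%). With the 20000 strongest peaks per library they were 1 for NKX2-1 (35.2%), 2 for PRDM16 (29.4%), 2 for PRDM3 (43.0%), 0 for all 3 proteins (14.7%), and outside H3K4me3 1 for PRDM16 (10.5%) and 0 for NKX2-1 (6.45%). The count for all 3 proteins was 1 with 50% overlap (31.7%), 1 with the ends of all annotated genes (18.2%), and 4 with any region over the window (62.4%). With regions required in all 3 libraries, it was 1 (21.1%), NKX2-1 had 1 (28.3%), NKX2-1 outside H3K4me3 0 (3.41%) and H3K4me3 at a gene end 1 (53.6%). With annotated starts as ends, chosen after seeing the data, H3K4me3 had 4 (58.8%). Leaving out 1 library at a time gave 1 to 2 members for H3K4me3 (53.9% to 55.2%) and 1 to 4 for NKX2-1 (31.3% to 44.3%). PRDM16 had 6 to 7 (71.7% and 81.6%, since 1 library is then enough). Outside H3K4me3, NKX2-1 had 0 to 3 (6.2% to 20.4%). There PRDM16 had 4 without an H3K4me3 library (33.9% to 36.1%) and 6 without a PRDM16 library (55.9% and 70.9%). All 3 proteins had 1 to 2 (21.5% to 38.6%). Differences were −4.95 to −3.49 from H3K4me3 and −2.09 to −1.23 from PRDM. The lone PRDM3 library could not be left out. Differences moved by over 1.5 times in some settings. From H3K4me3 the difference was −1.45 within the first letter series, −2.47 at 20 kb and −6.91 at 100 kb. From PRDM it was −0.748 within the first letter series, −2.53 with q under 0.05 and −2.63 at 100 kb. Correlations of NKX2-1 with H3K4me3 deviations over genes were 0.189, 0.0555 and 0.0793 for same-numbered libraries. NKX2-1 replicate 1 had −0.118 and −0.163 with H3K4me3 replicates 2 and 3. NKX2-1 replicates 2 and 3 had −0.0926 and −0.0944 with H3K4me3 replicate 1. NKX2-1 replicate 2 had 0.0821 with H3K4me3 replicate 3, and NKX2-1 replicate 3 had 0.0614 with H3K4me3 replicate 2. The signs thus followed the letter series, and replicate numbers did not pair libraries within the second series. With the numbers as a replicate block the difference was −4.08, with p = 0.25 in an exact sign permutation, the smallest p that 3 pairs allow. Shorter lists and required libraries leave fewer peaks by construction, and the cause of other moves was not tested. Read depth, unknown here, limits what an absent peak can show.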
